A study of Mus musculus with 7 samples.

Results

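Heat shock and unfolded protein response genes were followed in the cortex of APP/PS1 mice, a model of Alzheimer's disease, after a ketogenic diet (KD) or a control diet (CD). The set was a fixed list of 38 gene symbols: 11 cytosolic chaperones and co-chaperones, 2 mitochondrial chaperonins, 14 chaperones, folding enzymes and degradation factors of the endoplasmic reticulum (ER), 8 stress sensors and transcription factors, and 3 targets of the integrated stress response. All 38 were among the 23413 symbols of the count files, and all 38 passed the filter on low counts that left 15881 genes for testing. Both groups carried the APPswe and PSEN1dE9 transgenes on a C57BL/6 background, and no wild-type library was analysed here, so the comparison is of diets within the model. From 6 months of age the mice were singly housed and fed equal calories of a diet with 74% of its energy as carbohydrate, 10% as protein and 16% as fat (CD, labelled SD in the sample labels, n = 4) or with less than 0.5% as carbohydrate, 10% as protein and 90% as fat (KD, n = 3). Cortex was taken after 7 months of diet, at 13 months of age, and RNA from 10 mg of tissue of each mouse gave 1 library. Neither the labels nor the methods give the sex of the mouse behind each library.

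Cells meet misfolded protein with separate programs. In the cytosol, the transcription factor HSF1 induces the heat shock proteins, which bind unfolded chains and use ATP to refold them or pass them on for degradation. In the ER, the sensors IRE1, PERK and ATF6 start the unfolded protein response: spliced XBP1 and cleaved ATF6 induce ER chaperones and degradation factors, while PERK phosphorylates eIF2α, which slows translation in general and favours that of ATF4. ATF4 and its partner CHOP induce amino acid synthesis and feedback genes, an arm shared with other kinases and known as the integrated stress response. Protein aggregates and disturbed ER folding have long been studied in Alzheimer's disease, and much of this signalling acts through splicing, cleavage and phosphorylation, which gene-level counts do not measure.

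The libraries held 22272883 to 36614954 counts, so 3 counts, taken as the limit of detection, corresponded to 0.0819 to 0.135 CPM (counts scaled to the library total). The 38 genes took 0.776 to 0.874% of all counts. Cortical neuron genes were present in every library, with Slc17a7, which loads glutamate into vesicles, at 445 to 630 CPM. The libraries also differed in sex-linked, region and cell type markers, some of them uneven between the diets. Xist, expressed from the inactive X chromosome, was at 242 to 526 CPM in CD 1, CD 2, KD 1 and KD 2, and the Y-linked Ddx3y was at 301 to 346 CPM in CD 3, CD 4 and KD 3. CD 4 held the most RNA of 5 olfactory bulb markers (66.4 CPM summed, against 5.28 to 9.40 in the other CD libraries and 4.45 to 18.9 in KD) and of 5 meningeal fibroblast markers (252 CPM, against 42.9 to 68.5 and 37.0 to 121). KD 3 held the most of 5 ventral forebrain markers (538 CPM, against 46.5 to 78.4 in CD and 48.5 to 53.7 in the other KD libraries). The summed level of 6 oligodendrocyte markers was 1028 CPM in CD 3 and 1074 CPM in KD 3, and 2008 to 4006 CPM in the rest. The summed level of 12 immediate early genes, which follow neuronal activity, ranged from 174 to 528 CPM in CD and from 248 to 607 CPM in KD. Of these 12, 11 had a log2 fold change (KD minus CD) above zero and 1 below, with a median of 0.46. The 6 oligodendrocyte markers were all below zero, with a median of -0.42. In neither list did a gene reach a raw p under 0.05 by edgeR. CD 1 held the most RNA of 5 choroid plexus markers (452 CPM summed, against 10.6 to 70.7 in the other CD libraries and 25.7 to 48.1 in KD). For genes whose lowest or highest value was in CD 4 or KD 3, several fold changes are also given without those libraries. In such bulk tissue, fewer cells of a type and less RNA per cell cannot be told apart.

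Levels of the 38 genes spanned more than 3 orders of magnitude when CPM were divided by the merged length of all annotated exons. The cytosolic HSP90 gene Hsp90ab1 was highest at 487 CPM per kb, followed by its paralog Hsp90aa1 at 307 and by Hspa8, the constitutive HSP70, at 299. The library ranges of Hsp90aa1 and Hspa8 overlapped, so their order is not resolved, and ranks also depend on the exon length used. The ER lectin chaperone genes Canx and Calr (176 and 132 CPM per kb) and the ER HSP90 gene Hsp90b1 (123) came next. The amino acid synthesis gene Asns (72.5), the ER HSP70 gene Hspa5 (69.8) and Atf4 (63.96) lay close together, with library ranges that overlapped. The low end held inducible forms and the sensor gene Ern1 (1.21 CPM per kb). Among the inducible forms, the stress-induced HSP70 genes Hspa1a and Hspa1b were at 1.38 and 1.45 CPM per kb. The small heat shock gene Hspb1 was at 1.38 and the co-chaperone gene Bag3 at 1.34. The lowest value, 0.215, was for the stress-induced pseudokinase gene Trib3. The 4 inducible heat shock genes had library ranges that overlapped, so their order is not resolved. Some levels are uncertain because reads may be shared: 68.8% of the 50-base windows of Hspa8, 50.1% of those of Hsp90aa1, 50.1% of those of Hspb1, 66.3% of those of Hspa1a and 62.3% of those of Hspa1b also lie in transcripts of other genes, mostly pseudogenes or, for the Hspa1 pair, each other. For 21 of the 38, including Trib3, Chac1, Asns and Atf4, no window was shared.

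**Figure D1:**
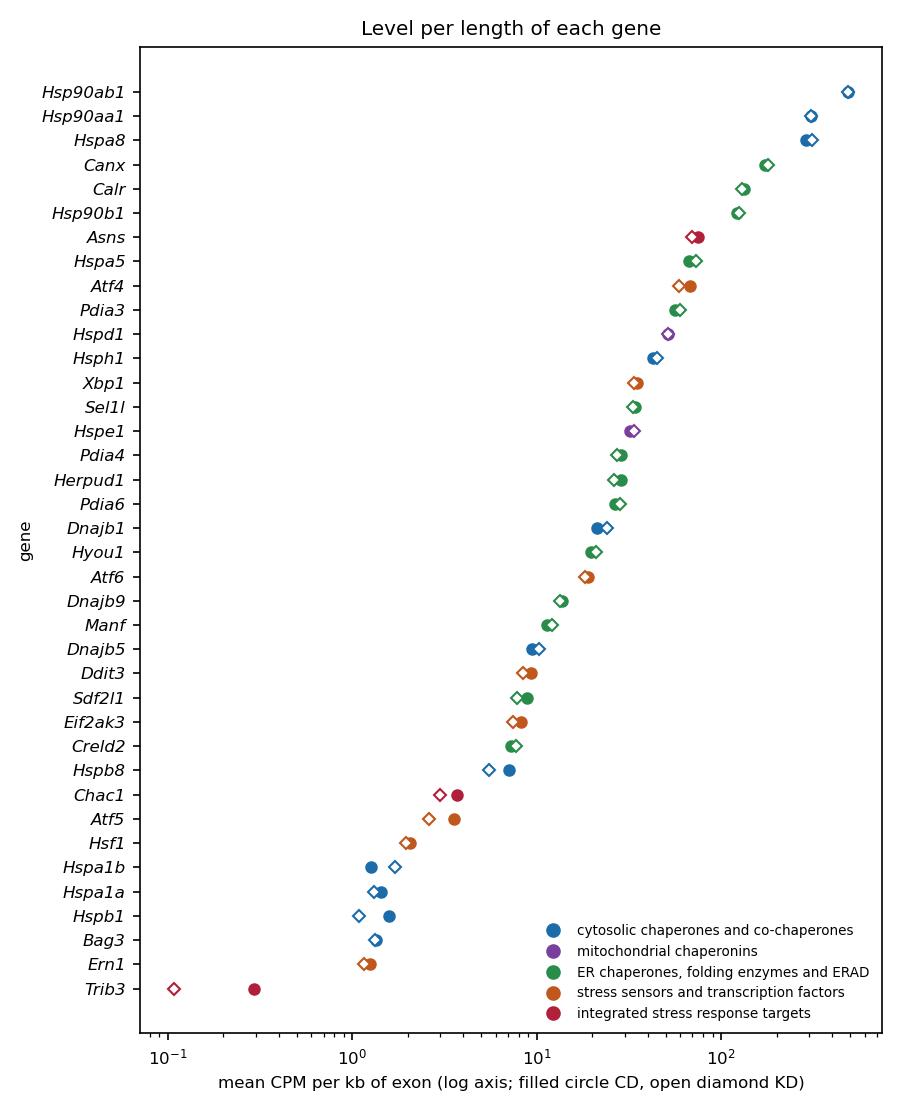
Mean level of each of the 38 genes on the horizontal log axis, in CPM per kb of exon, for CD (filled circles, n = 4) and KD (open diamonds, n = 3), coloured by role. Levels run from Trib3 at the bottom to Hsp90ab1 at 487 CPM per kb over all libraries at the top, and the diet symbols overlap or lie close together for all but a few of the low genes.

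The question the design puts to these genes is whether their cortical mRNA differed between the diets. By the quasi-likelihood test of edgeR, 0 of the 38 genes passed an adjusted p of 0.05. The background over all 15881 genes was 0%, and the smallest adjusted p of any gene was 0.979. At a raw p under 0.05 the test held 1 of the 38 on the lower side in KD, Trib3, against 1.52% of all genes, and 0 on the higher side, against 1.66%. By this test no member reached a raw p of 0.01, the threshold the study used, against 0.321% of all genes, whereas Trib3 did by edgeR's likelihood-ratio test. Which of edgeR's tests the study ran is not given in the sources used here. DESeq2, limma-voom and edgeR's likelihood-ratio test each gave 0 adjusted calls and 1 raw call among the members, again Trib3. In these fits 3.68%, 2.81% and 3.14% of all genes had a raw p under 0.05, so 1 of 38 was close to the background. Log2 fold changes (KD minus CD) were above zero for 17 genes and below zero for 21, with a median of -0.029, beside 49.0% above zero and a median of -0.0033 over all genes tested.

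Most estimates were close to zero. The log2 fold change was within 0.2 of zero for 32 of the 38 genes, and the highest library was at most 1.5 times the lowest for 25 of the 38. The shares of all tested genes within these bounds were not counted, so both counts describe the members alone. Standard errors ran from 0.071 to 0.46 with a median of 0.11, so that 2 standard errors spanned 0.14 to 0.92 on the log2 scale on either side of the estimate. The spread within diets, as an SD of log2 CPM, had a median of 0.15 in the members and 0.21 over all genes, and 12 members lay above the latter. Members and all genes were not matched on level, so this does not show that the members were unusually stable. By role, 0 of the 8 sensors and transcription factors and 0 of the 3 integrated stress response targets had a log2 fold change above zero, against 8 of 14 ER genes, 7 of 11 cytosolic genes and 2 of 2 mitochondrial genes. Group medians were -0.11, -0.29, 0.056, 0.022 and 0.048 in that order. Without CD 4 and KD 3, 4 of the 8 sensors and factors were above zero and their median was -0.022, while the 3 targets stayed below zero with a median of -0.26.

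**Figure D2:**
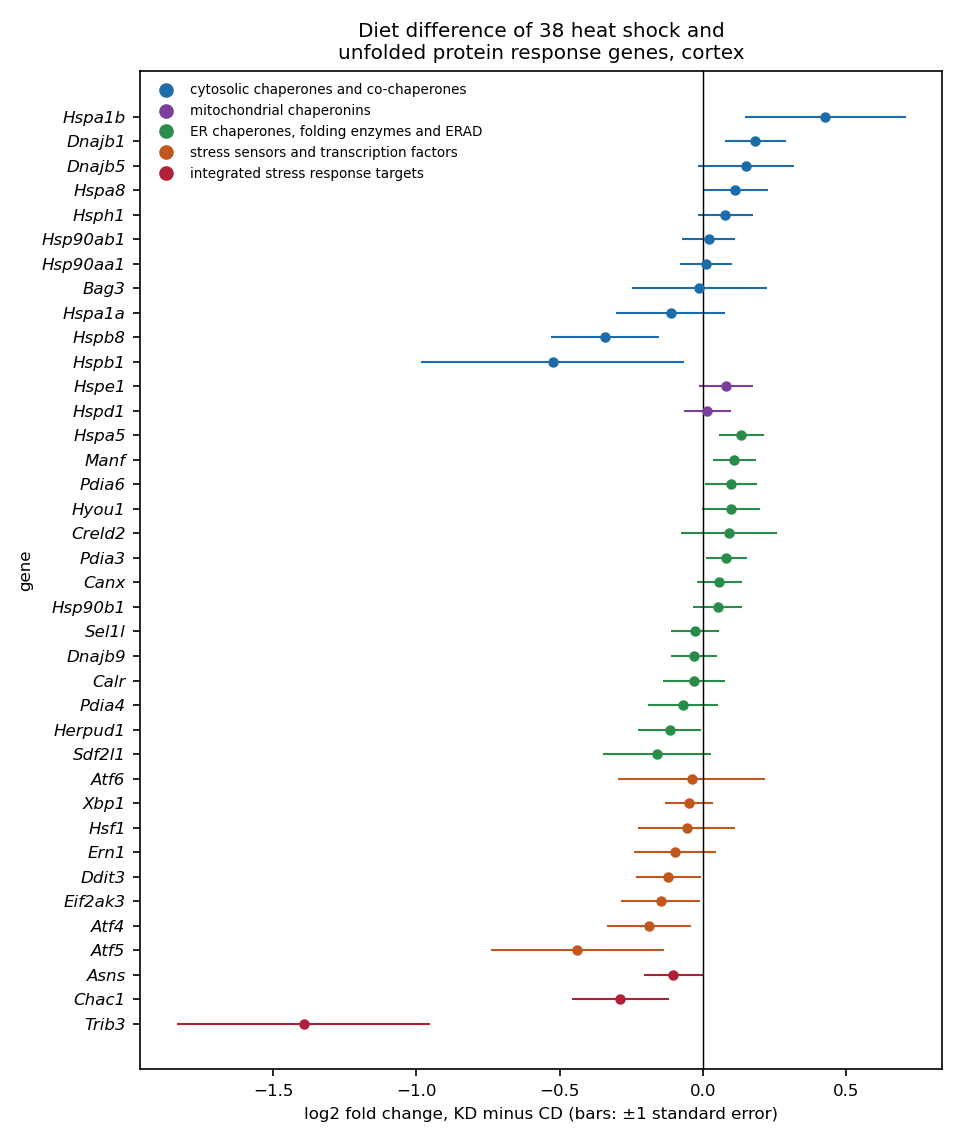
Log2 fold change of each gene (KD minus CD, horizontal axis) with bars of 1 standard error either side, from edgeR over 4 CD and 3 KD libraries, grouped and coloured by role. All 11 sensors, transcription factors and integrated stress response targets sit left of zero, and Trib3 at -1.39 is the furthest out, while most chaperones lie within 0.2 of zero.

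**Figure D3:**
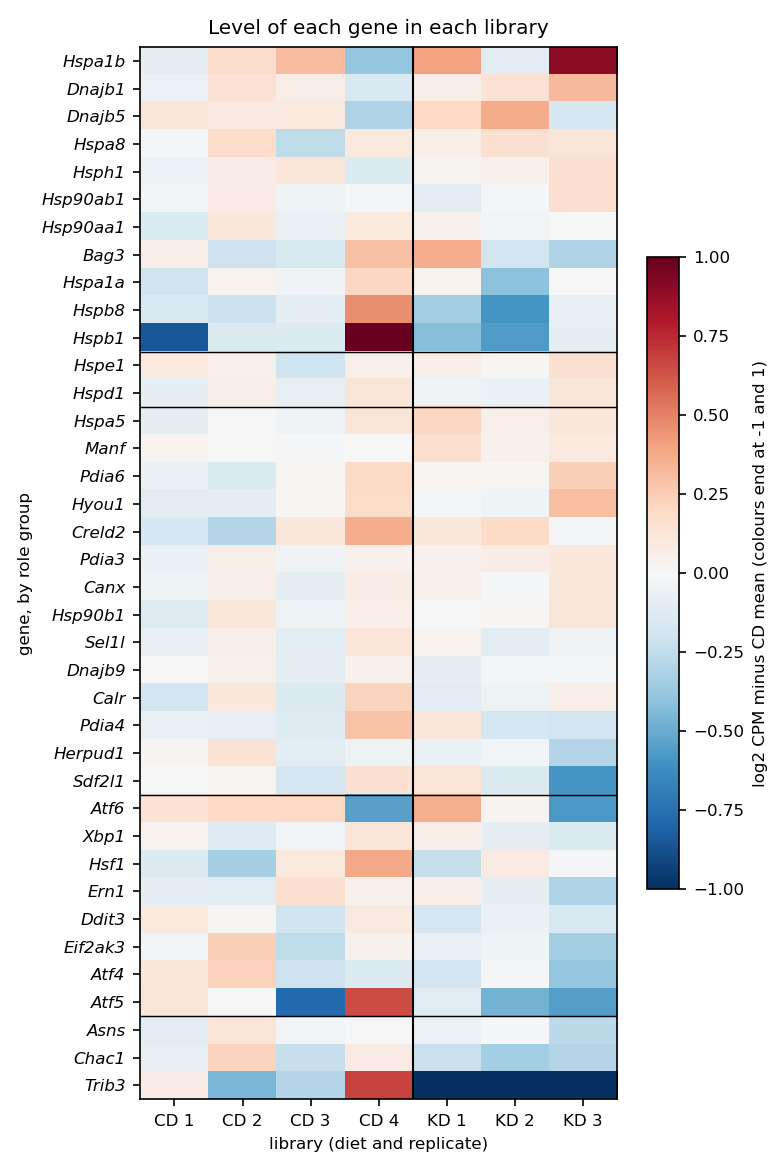
Log2 of the plain CPM of each gene (rows, by role) in each library (columns), minus the CD mean of that gene, in colour from -1 to 1. Trib3 is below the scale's end in all 3 KD libraries, Atf6 is low in CD 4 and KD 3, and the chaperone rows show little contrast between the diets.

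Positions of genes are those of GENCODE M21 on GRCm38 (mm10), and counts cover exons. Among the sensors, Eif2ak3 (chr6:70844515-70905245), which encodes PERK, was at 48.5, 58.3, 41.4 and 50.9 CPM in CD 1 to CD 4 and at 46.8, 47.9 and 39.1 CPM in KD 1 to KD 3. Its log2 fold change was -0.15 (SE 0.14), with overlapping groups, and that of Eif2ak3 was -0.050 without KD 3. Ern1, which encodes IRE1α, had 9.52, 9.40, 11.4 and 10.5 CPM in the CD libraries and 10.6, 9.55 and 8.22 CPM in the KD libraries. The difference of -0.096 (SE 0.14) was smaller than its standard error, and the lowest value was in KD 3. Xbp1, whose mRNA IRE1α splices, ranged from 104 to 124 CPM over all libraries, at 117, 104, 112 and 124 CPM in CD and 119, 107 and 104 CPM in KD. Its log2 fold change of -0.047 (SE 0.083) covers both splice forms, which the counts do not separate. Hsf1, the master factor of the heat shock response, was at 12.97, 11.4, 15.4 and 18.7 CPM in CD and 12.2, 15.2 and 14.3 CPM in KD, a log2 fold change of -0.056 (SE 0.17) with CD 4 the highest library. That of Hsf1 was 0.064 without CD 4 and 0.025 without KD 1, so leaving out either library turned its sign.

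Atf6 (chr1:170704674-170867771), the ER membrane factor that is cleaved under stress, showed a split by library and not by diet. It was at 188, 196, 196 and 117 CPM in CD 1 to CD 4 and 218, 173 and 115 CPM in KD 1 to KD 3. CD 4 and KD 3 were the lowest, and the other 5 libraries lay between 173 and 218 CPM. The log2 fold change was -0.039 (SE 0.26), and it was 0.027 without these 2 libraries, with an SE of 0.11. The same libraries stood apart in the region markers, CD 4 in olfactory bulb and meningeal genes and KD 3 in ventral forebrain genes. Their part in the level of Atf6 was not tested. None of the 7197 windows of Atf6 is shared with another gene.

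Atf4 (chr15:80255184-80257541), the central factor of the integrated stress response, was at 172, 186, 137 and 144 CPM in CD 1 to CD 4 and at 139, 157 and 121 CPM in KD 1 to KD 3. CD 1 and CD 2 were the highest and KD 3 the lowest, and the groups overlapped. The means were 159.6 ± 22.9 (SD, n = 4) and 139 ± 17.9 CPM (SD, n = 3), and the log2 fold change was -0.19 (SE 0.15). Over single libraries left out, that of Atf4 ranged from -0.30 (without KD 2) to -0.090 (without KD 3), never past a raw p of 0.05. Atf4 passed a raw p of 0.05 with Xist as a covariate, where 6.52% of all genes did, and with a replicate block, which holds replicates 1 to 3 and so leaves out CD 4, where 5.89% did, beside 3.19% in the quasi-likelihood fit of all libraries. It passed an adjusted p of 0.05 in neither. Atf5, a relative of Atf4 that is translated in the same manner, was at 7.30, 6.69, 3.90 and 10.5 CPM in CD and at 6.16, 4.82 and 4.58 CPM in KD. Its log2 fold change of -0.44 (SE 0.30) spanned groups that overlapped, since CD 3 was the lowest of all. Without CD 3, the log2 fold change of Atf5 was -0.64 and it passed a raw p of 0.05. Without CD 4 and KD 3, that of Atf5 was -0.12. Ddit3, which encodes the pro-apoptotic factor CHOP, was at 16.9, 16.0, 13.8 and 16.8 CPM in CD and 14.1, 15.2 and 14.3 CPM in KD, a log2 fold change of -0.12 (SE 0.11). The exons of Ddit3 and Atf5 overlap genes on the opposite strand, and the strand setting of the counting is not given in the sources used here.

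Targets of this arm are known for a short element that ATF4 binds with C/EBP partners, searched here as TGATGNAA on both strands in RefSeq promoter windows of 250 bases before to 50 bases after the start site (GRCm38.p6). Of 27025 genes with such a window, 4.51% held a match, and 4 of the 31 members with a window did: Trib3, Chac1, Asns and Herpud1. The stretches around the match in the 3 targets are shown because these genes had the lowest median log2 fold change of any role group, with the match in capitals, read as its reverse complement where it lies on the other strand. The windows lie at chr2:152344036-152344086 (minus strand), chr2:119351009-119351096 (plus strand) and chr6:7693185-7693272 (minus strand), and the first base of the match is at +15, -193 and -23 from the start site.
Trib3: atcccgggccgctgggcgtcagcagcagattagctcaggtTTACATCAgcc
Chac1: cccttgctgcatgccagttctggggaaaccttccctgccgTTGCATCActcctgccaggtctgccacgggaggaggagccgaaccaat
Asns: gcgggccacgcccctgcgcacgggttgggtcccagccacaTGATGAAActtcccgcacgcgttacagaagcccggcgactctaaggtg
A match is a description of the sequence and shows neither binding nor a cause.

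Trib3 (chr2:152337422-152344032) encodes a pseudokinase that restrains ATF4 signalling in a feedback loop. It was at 0.627, 0.435, 0.488 and 0.956 CPM in CD 1 to CD 4 and at 0.171, 0.294 and 0.224 CPM in KD 1 to KD 3, from 22, 13, 16 and 35 counts and 4, 10 and 5 counts. Every KD library lay below every CD library. The mean was 0.626 ± 0.234 CPM (SD, n = 4) in CD and 0.230 ± 0.0616 CPM (SD, n = 3) in KD, a log2 fold change of -1.39 (SE 0.44, adjusted p = 0.979). It was the only member with all KD libraries below all CD libraries, where 2.56% of all genes tested showed this, so 1 of 38 was close to the background. Its estimate stayed between -1.64 and -1.14 when any 1 library was left out and passed a raw p of 0.05 each time. With CD 4 and KD 3 both left out Trib3 was at -1.09, and with a replicate block, which also leaves out CD 4, at -1.14, and in neither did it pass a raw p of 0.05. Without CD 4 and with no block it was at -1.14 too, and it passed. The lowest adjusted p of Trib3 over the alternatives was 0.674. Counts as low as 4 in KD 1 limit the precision of this value.

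Chac1 (chr2:119351229-119354381), which encodes an enzyme that degrades glutathione, was described in the same way after its values were seen. It was at 5.67, 7.02, 5.12 and 6.36 CPM in CD and at 5.13, 4.73 and 4.89 CPM in KD, so that only CD 3 and KD 1 overlapped. The log2 fold change was -0.29 (SE 0.17). Asns (chr6:7675169-7693254), which encodes asparagine synthetase, was at 190.1, 223, 201 and 205 CPM in CD and at 196, 202 and 169.8 CPM in KD, with KD 3 the lowest. Its log2 fold change of -0.10 (SE 0.10) was as large as its standard error, and that of Asns was -0.019 without KD 3 and -0.030 without CD 4 and KD 3.

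**Figure D4:**
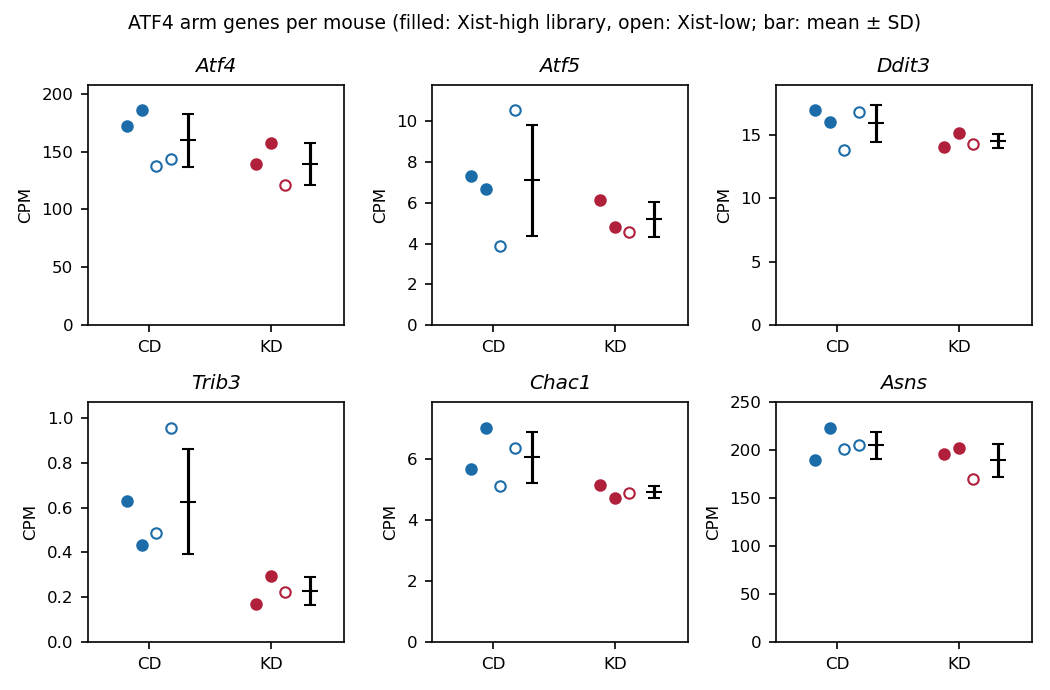
CPM of 6 genes of the ATF4 arm in each mouse (vertical axis from 0), for CD (blue, n = 4) and KD (red, n = 3), with filled symbols for Xist-high and open symbols for Xist-low libraries and bars for the mean ± SD. Trib3 is the only panel in which all KD points lie below all CD points, and in Atf4 the Xist-low libraries are below the Xist-high ones within each diet.

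Because Xist level and diet are not balanced, each gene was also compared separately within the Xist-high libraries (CD 1 and CD 2 against KD 1 and KD 2) and within the Xist-low ones (CD 3 and CD 4 against KD 3), a comparison added after the data were seen. KD lay below CD in both strata for 5 of the 38 genes, Herpud1, Eif2ak3, Atf4, Trib3 and Chac1, against 7.51% of all genes. KD lay above CD in both for 3 genes, Pdia6, Manf and Hyou1, against 7.07%. With 1 KD library in the second stratum, no test was made.

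Many ER chaperone genes are known for the ER stress response element, which ATF6 and XBP1 recognise, searched as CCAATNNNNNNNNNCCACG on both strands. It was found in 0.137% of all 27025 genes and in 6 of the 31 members with a window: Hspa5, Hsp90b1, Calr, Canx, Pdia6 and Creld2. The related element II, ATTGGNCCACG, was found in 0.0444% of genes and in Herpud1. Stretches of 3 promoters are shown so that the element of the main ER chaperone genes and of a secreted ER gene can be compared, with the element in capitals, at chr2:34771985-34772083 (plus strand), chr10:86705493-86705694 (minus strand) and chr15:88819480-88819578 (plus strand).
Hspa5: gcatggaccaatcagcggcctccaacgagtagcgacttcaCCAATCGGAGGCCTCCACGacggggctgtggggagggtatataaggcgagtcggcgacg
Hsp90b1: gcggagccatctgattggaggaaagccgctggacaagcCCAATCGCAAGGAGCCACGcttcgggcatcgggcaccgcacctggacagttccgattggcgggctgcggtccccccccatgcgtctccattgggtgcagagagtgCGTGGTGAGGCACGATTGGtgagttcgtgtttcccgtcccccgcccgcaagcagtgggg
Creld2: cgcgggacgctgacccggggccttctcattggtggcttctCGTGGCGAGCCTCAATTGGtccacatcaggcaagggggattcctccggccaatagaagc
Hsp90b1 holds the element in both orientations.

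Hspa5 (chr2:34771970-34777547), which encodes BiP, the ER HSP70 that holds the sensors inactive, was at 265, 284, 277 and 311 CPM in CD 1 to CD 4 and at 327, 295 and 307 CPM in KD 1 to KD 3. CD 4 lay within the KD range and the other CD libraries below it. The log2 fold change was 0.13 (SE 0.078), the largest of the ER group. Hsp90b1, which encodes the ER HSP90 GRP94, was at 447, 528, 474 and 513 CPM in CD and 491, 493 and 531 CPM in KD, a log2 fold change of 0.053 (SE 0.086). The lowest estimate of the group was for Sdf2l1, a BiP cofactor, at 9.78, 9.86, 8.66 and 10.8 CPM in CD and 10.7, 8.82 and 6.47 CPM in KD. Its log2 fold change was -0.16 (SE 0.19), and without KD 3, its lowest library, that of Sdf2l1 was 0.020.

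Manf (chr9:106838312-106891979), a secreted ER stress factor with neurotrophic activity, was at 40.9, 39.8, 39.4 and 39.9 CPM in CD and 44.6, 41.3 and 42.8 CPM in KD. All KD libraries lay above all CD libraries, in 1 of 38 members against 1.64% of all genes. The shift was small, with a log2 fold change of 0.11 (SE 0.076), and the highest library was 1.13 times the lowest. The lectin chaperone genes Canx and Calr had log2 fold changes of 0.058 and -0.031, and the disulfide isomerase genes Pdia3, Pdia4 and Pdia6 had 0.082, -0.068 and 0.099. On the same scale Creld2, a secreted ER stress marker, was at 0.092, and Hyou1, the ER nucleotide exchange factor, at 0.098. Among degradation factors, Herpud1 was at -0.12 and Sel1l, the partner of the HRD1 ligase, at -0.027, with the BiP co-chaperone Dnajb9 at -0.031.

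In the cytosol, Hspa8 was at 1221, 1400.4, 1041 and 1322 CPM in CD and 1287, 1374 and 1356 CPM in KD, and the difference of 0.11 (SE 0.11) matched its error. Hsp90aa1 was at 1095, 1292, 1148 and 1286 CPM in CD and 1236, 1182 and 1199.8 CPM in KD, with a log2 fold change of 0.011 (SE 0.090) that changed sign when CD 1, CD 3 or KD 1 was left out. Hsp90ab1 had a log2 fold change of 0.022 (SE 0.092). For both cytosolic HSP90 genes the difference was below 1 standard error.

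The estimates of the stress-inducible HSP70 pair had opposite signs. Hspa1a was at 3.68, 4.31, 4.12 and 4.86 CPM in CD and 4.32, 3.17 and 4.22 CPM in KD, a log2 fold change of -0.11 (SE 0.19), which was 0.010 for Hspa1a without KD 2. Hspa1b was at 3.25, 3.91, 4.30 and 2.65 CPM in CD and 4.58, 3.23 and 6.47 CPM in KD, a log2 fold change of 0.43 (SE 0.28), with KD 3 the highest and CD 4 the lowest library. Without these 2 libraries that of Hspa1b was 0.035. Both estimates are uncertain, since the pair shares most of its sequence. How reads that map to both genes were counted is not given in the sources used here. The co-chaperone gene Dnajb1, which activates HSP70, was at 65.4, 75.3, 71.7 and 61.5 CPM in CD and 71.6, 75.5 and 85.3 CPM in KD, a log2 fold change of 0.18 (SE 0.11). That of Dnajb1 was 0.12 without CD 4 and 0.066 without CD 4 and KD 3. Dnajb5, a relative with brain expression, was at 60.4, 58.8, 59.1 and 44.5 CPM in CD and 63.6, 71.6 and 49.0 CPM in KD, lowest in CD 4 and KD 3 like Atf6, with a log2 fold change of 0.15. That of Dnajb5 was 0.043 without CD 4, 0.30 without KD 3 and 0.20 without both. Hsph1, which encodes the nucleotide exchange factor HSP110, had a log2 fold change of 0.079 (SE 0.096).

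The small heat shock proteins hold unfolded chains without ATP. Hspb1 was at 0.798, 1.30, 1.31 and 3.14 CPM in CD and 1.07, 0.970 and 1.35 CPM in KD, and its log2 fold change of -0.52 had the largest SE of the set, 0.46. Hspb8, which acts with Bag3 in selective autophagy, was at 12.1, 11.6, 12.6 and 18.6 CPM in CD and 10.6, 8.93 and 12.8 CPM in KD. Its log2 fold change was -0.34 (SE 0.19). CD 4 was the highest library for both, and it was also the highest in meningeal and endothelial markers (236 CPM summed over 5 endothelial genes, against 152 to 174 in the other CD libraries and 143 to 177 in KD), whose part was not tested. Without CD 4, the log2 fold change of Hspb1 was -0.024 and that of Hspb8 -0.18. Bag3 had a log2 fold change of -0.012 (SE 0.23).

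The mitochondrial chaperonin genes Hspd1 and Hspe1, for HSP60 and its lid HSP10, lie head to head on chromosome 1 and share a promoter. A run of 3 heat shock units, searched as GAANNTTCNNGAA on both strands, occurs in 0.662% of all promoter windows and in Hsph1, Hspd1 and Hspe1 among the members. The shared region is shown because both genes can be read from it, at chr1:55088019-55088116 on the plus strand, with the element in capitals.
Hspe1: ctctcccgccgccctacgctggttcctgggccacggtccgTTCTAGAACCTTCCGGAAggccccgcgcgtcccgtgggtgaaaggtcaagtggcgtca
Hspd1 was at 127, 141, 128 and 147 CPM in CD and 132, 129.7 and 147 CPM in KD, a log2 fold change of 0.016 (SE 0.082). Hspe1 was at 50.6, 49.0, 41.1 and 48.9 CPM in CD and 49.2, 47.8 and 52.4 CPM in KD, a log2 fold change of 0.080 (SE 0.094). Neither differed beyond its error, and the exons of the genes overlap on opposite strands.

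A total of 5 pairs, chosen for a shared promoter, sequence or inducer, were compared over the 7 libraries by exact two-sided permutation of log2 CPM. Dnajb1 and Hsph1 gave Pearson r = 0.92 (permutation p = 0.00456, adjusted over 5 pairs 0.0228) and Spearman rho = 0.79 (permutation p = 0.0480, adjusted 0.240). The value was 0.75 without CD 4 and KD 3, the 2 libraries farthest from the median, and 0.93 with the diet means removed. Both genes were lowest in CD 4 and highest in KD 3. Atf4 and Asns gave r = 0.77 (permutation p = 0.0411, adjusted 0.103) and rho = 0.54 (permutation p = 0.236, adjusted 0.393), and r = 0.89 without CD 1 and CD 2. Hspa5 and Hsp90b1 gave r = 0.53 (permutation p = 0.209, adjusted 0.348) and rho = 0.54 (permutation p = 0.236, adjusted 0.393), and Hspd1 and Hspe1 gave r = 0.43 (permutation p = 0.364, adjusted 0.456) and rho = 0.36 (permutation p = 0.444, adjusted 0.556). For Hspa1a and Hspa1b, r was 0.10 (permutation p = 0.810, adjusted 0.810) and rho -0.036 (permutation p = 0.963, adjusted 0.963), and r was -0.85 without CD 1 and KD 2. Without the 2 farthest libraries, r was 0.47 for Hspa5 and Hsp90b1 and 0.14 for Hspd1 and Hspe1.

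**Figure D5:**
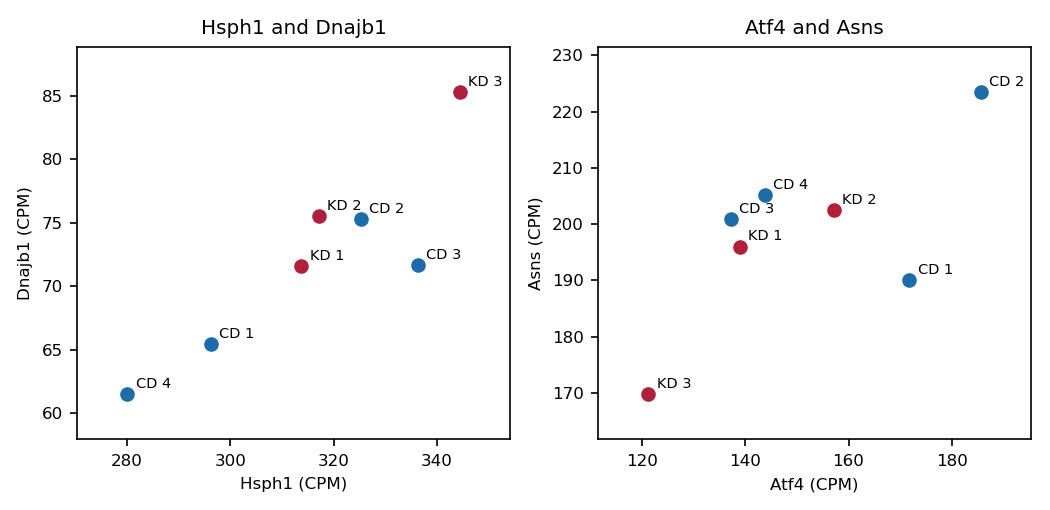
CPM of Dnajb1 against Hsph1 (left) and of Asns against Atf4 (right) in each library, labelled by diet and replicate, CD in blue and KD in red. Dnajb1 and Hsph1 are lowest together in CD 4 and highest together in KD 3, while for Atf4 and Asns KD 3 is lowest and CD 2 highest.

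Other genes of the pathway were counted in the same fit. Of 50 tested genes in a list of other chaperones, mainly cytosolic and mitochondrial, 23 had a log2 fold change above zero (median -0.018). A raw p under 0.05 was reached by 1 in each direction, beside 1.66% of all genes higher in KD and 1.52% lower. Hspa13, an atypical HSP70 of the secretory pathway, was at 98.2, 96.9, 100.3 and 97.5 CPM in CD and 109, 102 and 125 CPM in KD, with a log2 fold change of 0.20 (SE 0.081). Hspbp1, a nucleotide exchange factor of HSP70, was at 29.8, 27.3, 22.3 and 27.5 CPM in CD and 21.1, 21.2 and 20.9 CPM in KD, with a log2 fold change of -0.33 (SE 0.11). For both genes the groups did not overlap and the adjusted p = 0.979. Groups were also apart for the chaperone list's Hsbp1 and Cct4 (KD above CD) and, among the ATF4 targets, for Mars (KD below CD). Over all genes tested, 1.64% had every KD library above every CD library and 2.56% had every KD library below. Of 38 other ER folding, degradation and sensor genes tested, 16 were above zero with a median of -0.016, and 0 had a raw p under 0.05. Hspa13 of the secretory pathway is not among them, since it was counted with the chaperone list. A further list held eIF2α kinases, other genes of eIF2α signalling, and ATF4 targets beyond the members. Of its 33 tested genes, 9 were above zero with a median of -0.11, and 0 had a raw p under 0.05. That median ranged from -0.12 to -0.063 over the alternative settings, with 7 to 12 genes above zero, beside 49.0% of all genes in the quasi-likelihood fit.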

How the data were processed

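Cortex RNA of 7 APP/PS1 mice was sequenced from stranded total RNA libraries as paired reads of 50 bases. The authors aligned reads to mm10 with STAR and counted reads per gene, and the deposited values are raw counts per symbol and mouse, with no normalization or pooling. Versions, annotation and strand setting are not given in the sources used here. Groups came from the sample labels, 1 mouse per library. CPM are counts scaled to the library total; log2 CPM, used for SDs, role means and correlations, also use TMM factors and a prior count of 2. KD was compared with CD with edgeR 4.0.16 in R 4.3.3 (filterByExpr, TMM, glmQLFit with robust=TRUE, glmQLFTest), with Benjamini-Hochberg adjustment over 15881 genes, after a test on simulated data. Alternatives used DESeq2 1.42.0 and limma 3.58.1. Correlations used exact permutations in scipy 1.17.1. Positions, exon lengths and shared windows came from GENCODE M21 (GRCm38), promoter windows from RefSeq (GRCm38.p6, 31 of the 38 genes). Counting error alone sets the 3-count limit. The 38 genes and all lists were chosen with earlier results of these data known. Values in every library were given for the regulators, the main chaperone of each compartment and the extremes of each role group. They were also given for members with a raw p under 0.05 or groups that did not overlap. Of the other pathway genes, only those with a raw p under 0.05 had all values given. Chac1, Dnajb1, Dnajb5 and Hspb8 were added after their values were seen. Replicates differed by far more than sampling noise (chi-square per gene 16.1 to 68.3). The summed level of cortical neuron markers is not reported here.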

Additional observations from a re-analysis of the deposited data

Results flagged for a closer look

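In the CD group, the 38 genes and 6 means over roles gave 44 values, of which 4 had 1 library standing far from the other 3, where chance flags about 1 in 20 groups (2.2 of 44). The gap to the nearest library divided by the group's range was 0.929 for Dnajb5, with CD 4 at 5.43 log2 CPM (TMM-scaled, with a prior count of 2) and the others at 5.89 to 5.92. It was 0.899 for Atf6, with CD 4 at 6.82 and the others at 7.56 to 7.64. It was 0.852 for Hspb8, with CD 4 at 4.17 and the others at 3.58 to 3.66. For the mean log2 CPM of the 8 sensors and transcription factors it was 0.891, with CD 3 at 5.02 and the others at 5.17 to 5.19. CD 4 had the most olfactory bulb RNA and CD 3 the least oligodendrocyte RNA of the CD group, and their part in these values was not tested.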

How the results depend on the processing

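No member passed an adjusted p of 0.05 under any of the 19 alternative settings, 18 of them planned. The number with a raw p under 0.05, 1 in the quasi-likelihood fit, was 0 when genes needed at least 1 CPM in 3 libraries, because Trib3 was then not tested, 2 with Xist as a covariate (Atf4 and Trib3, where 6.52% of all genes passed, beside 3.19% in the quasi-likelihood fit), 0 without CD 4 and KD 3 (an alternative added after seeing the data), and 1 to 2 when single libraries were left out, with Dnajb1 added without CD 2 and Atf5 without CD 3, where 2.13% and 7.38% of all genes passed. With a replicate block, which leaves out CD 4, the number was also 1, Atf4 and not Trib3, with 5.89% of all genes. Without CD 4 and with no block it was Trib3. The replicate numbers were not taken as pairs, since deviations of same-numbered libraries correlated by 0.251, 0.195 and 0.098. The median log2 fold change of the members, -0.029 in the quasi-likelihood fit, ranged from -0.031 to 0.018 when single libraries were left out. Without CD 4 and KD 3 it was 0.029, with 22 of the 38 above zero. Over all alternatives it ranged from -0.039 to 0.029, so its sign depended on the libraries kept. Of 25 genes followed, 17 kept their sign under every setting that tested them. The replicate block gave Hsf1 0.068, close to the 0.064 without CD 4 alone. Leaving out CD 4 and KD 3 reversed Hspd1 (-0.0021), Sdf2l1 (0.058), Hsf1 (0.064), Atf6 (0.027), Ern1 (0.0065) and Xbp1 (0.031). Over single libraries left out, the log2 fold change ranged from -0.20 to 0.010 for Hspa1a, -0.031 to 0.059 for Hsp90aa1, -0.031 to 0.048 for Hspd1, -0.34 to 0.020 for Sdf2l1, -0.15 to 0.064 for Hsf1, -0.27 to 0.18 for Atf6, -0.19 to 0.0045 for Ern1 and -0.11 to 0.0025 for Xbp1. The correlation of Hspa1a and Hspa1b turned to -0.849 without the 2 farthest libraries. Where a sign turned, the cause was not tested. Depth limits Trib3 most, at 4 to 35 counts per library.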
